A study of Xenopus laevis and Petromyzon marinus with 21 samples.

Results

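The ADAM, ADAMTS and MMP metalloproteases and their TIMP inhibitors were followed in animal caps of the frog Xenopus laevis as the caps were turned from blastula ectoderm toward neural crest. Members were all genes of the frog count table whose names begin with adam, adamts, mmp or timp followed by a digit. There were 85 of them among 49282 genes: 21 ADAM, 27 ADAMTS, 33 MMP and 4 TIMP genes. The frog is an allotetraploid, so most genes exist as a copy on a long chromosome (L) and a copy on the short one (S). The 85 members carried 55 names, of which 30 had both copies, and the copies were treated as separate genes.

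Animal caps, the pluripotent ectoderm cut from the top of the blastula, were grown in a salt solution. Wild-type embryos had received mRNA for the Wnt ligand wnt8a together with mRNA for chordin, an extracellular antagonist of BMP, at the 2-cell stage (induced caps), or no injection (control caps). Each condition was collected at stages 9 (blastula), 13 (early neurula) and 17 (late neurula), with 3 libraries per group, named a, b and c after the letters of their columns, and 18 libraries in all. The series also holds 3 libraries of sea lamprey caps, which were not used here. Neither mRNA was injected by itself and there was no injected control, so the effects of injection, of wnt8a and of chordin cannot be told apart. The labels name no separate clutches, so p-values measure the spread between these libraries, which may be technical.

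ADAM proteases sit in the cell membrane and cut other membrane proteins near the cell surface, which releases ligands or trims adhesion molecules. ADAMTS proteases are secreted and act on proteoglycans, procollagens and other matrix proteins, MMPs cut a wide range of matrix and surface proteins, and TIMPs bind and block many of them. Neural crest cells leave the edge of the neural plate and migrate through matrix. In Xenopus, adam33 is the gene long called ADAM13, a crest protease known to cut cadherin-11.

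The libraries held 15596247 to 23292078 counts in genes (median 19021702). Levels are given in CPM, counts scaled to a common library size with TMM factors, which correct for shifts in library composition, and as mean and SD of 3 libraries. CPM is not corrected for gene length, so levels are compared between samples and not between genes. Log2 fold changes are given with their standard error (SE), and called changes had a Benjamini-Hochberg adjusted p under 0.05 in edgeR's quasi-likelihood test over 24499 genes. That test did not pair libraries by column letter, although same-lettered libraries deviated together. A block of letters, run as an alternative, ended 0 calls of members and added 18. Calls over all genes grew with it as well. The injected transcripts were high in induced caps (wnt8a.L 393 to 877 CPM at stage 9, at most 0.391 CPM in any control library). The summed level of 16 neural crest marker genes ran from 1674 to 2061 CPM in induced and from 51.0 to 68.6 CPM in control caps at stage 13, and from 4159 to 4551 against 113 to 121 CPM at stage 17. Of the 16 genes, sox10.L and sox10.S were at 0 in all induced libraries of stage 9, and none was at 0 throughout the induced groups of stages 13 or 17. Epidermal markers were lower in induced caps but not at background (15650 to 23170 against 38580 to 50800 CPM at stage 17). These are mixed tissues, in which fewer cells of a type and less RNA per cell cannot be told apart.

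Of the 85 members, 45 had enough counts to be tested: 14 ADAM, 15 ADAMTS, 13 MMP and 3 TIMP genes. Of the 40 that were not tested, 31 stayed at 10 counts or fewer in every library, and 4 MMP genes had no count at all. At stage 9, 1 member was higher in induced caps and 0 were lower, against 0.347% and 0.0653% of all genes tested. DESeq2 also called 1 and 0, and 2 members had an unadjusted p under 0.05, beside 815 of all 24499 genes tested. At stage 13, 11 members were higher and 6 lower (24.4% and 13.3%, against 18.9% and 21.4% of all genes), with a median log2 fold change of 0.06 for members and 0.01 for all genes. At stage 17, 14 members were higher and 9 lower (31.1% and 20%, against 22.2% and 22.8%), with medians of 0.52 and 0.00. By family, ADAM genes had 2 higher and 6 lower calls at stage 17, whereas ADAMTS genes had 5 and 0 and MMP genes 6 and 3. The libraries of induced and control caps did not overlap for 2 of 45 members at stage 9, 23 at stage 13 and 30 at stage 17, while this held for 4.41%, 49.6% and 60.8% of all genes.

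**Figure D1:**
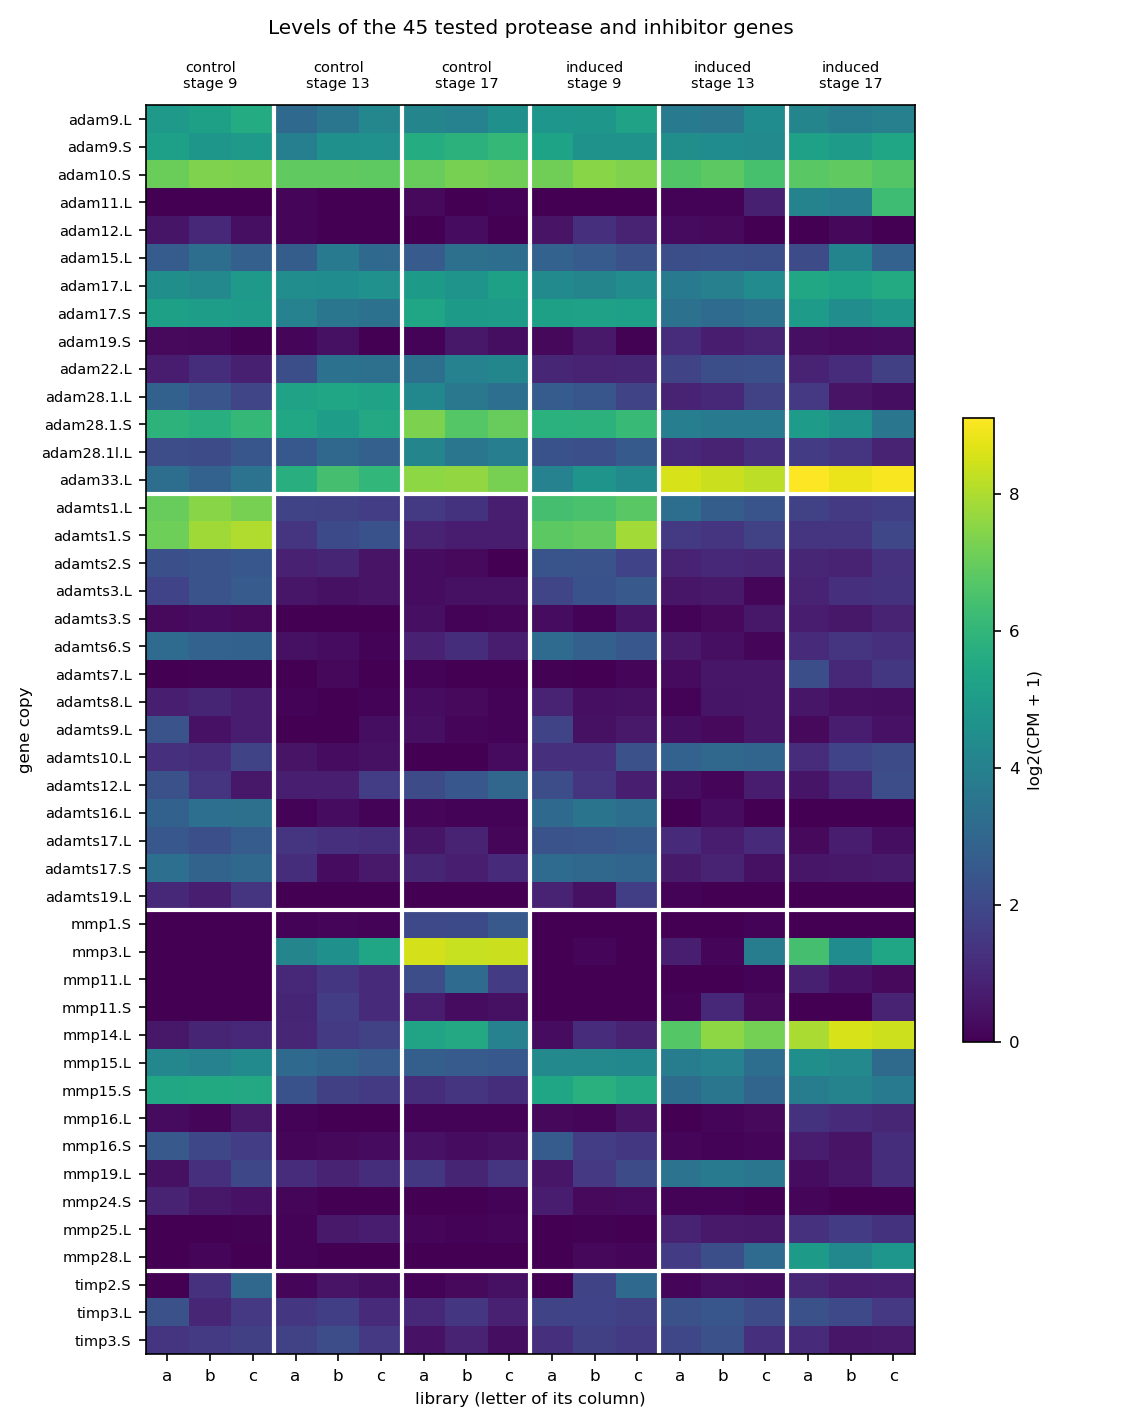
Level of each of the 45 tested members in the 18 frog libraries, with rows grouped by family and columns by group and library. Color shows log2(CPM + 1), from dark (0) to yellow (high). adam33.L and mmp14.L brighten from stage 9 to 17 in induced caps, and mmp3.L is bright in control caps of stage 17.

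ADAMs were sorted by gene name into those with and without a working zinc site, which was not checked in the frog sequences. Among those listed with it, adam33.L was higher in induced caps at all 3 stages. Its level in libraries a, b and c was 8.78, 6.26 and 9.99 CPM in control and 15.5, 25.3 and 19.1 CPM in induced caps of stage 9. At stage 13 it was 52.2, 85.6 and 64.0 against 381, 334 and 297 CPM. At stage 17 it was 190.1, 201 and 152 against 556, 458 and 524 CPM. Every induced library lay above every control library of its stage, and the gene also rose with age in both conditions, although the rise in induced caps from stage 13 to 17 (log2 fold change 0.60, adjusted p 0.033) was lost under 5 of 25 alternatives (adjusted p up to 0.14), without induced library b or c of stage 13 or a or c of stage 17 among them. The log2 fold change was 1.26 (SE 0.22, adjusted p 0.015) at stage 9, 2.33 (SE 0.22, adjusted p 1e-06) at stage 13 and 1.503 (SE 0.21, adjusted p 3.7e-05) at stage 17. The call at stage 9, the only one made among the members there, rested on few libraries: adjusted p became 0.058, 0.095 and 0.078 without control library a, control library b or induced library b, and 0.5 when only the stage 9 groups were fitted. The other copy, adam33.S, had at most 9 counts in a library, and the L copy held 97.7 to 99.96% of the pair's counts by group.

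adam19.S, a protease known in Xenopus to be needed for the neural crest, was very low: 0.114, 0.315 and 0 CPM in control and 1.24, 0.659 and 0.849 CPM in induced caps of stage 13. The groups did not overlap there (log2 fold change 2.68, SE 0.94, adjusted p 0.032), but the call was lost without control library a or c or induced library a or c (adjusted p 0.057 to 0.11), and the value was 3.79 without control library b. At stage 17 its log2 fold change was -0.19 (SE 0.90, adjusted p 0.89). adam12.L, a fusion-associated ADAM of muscle, lay at or below 1.32 CPM in every library and passed no test between conditions.

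The broadly used sheddases differed little between conditions. adam10.S, a principal Notch and cadherin sheddase, was at 128, 152 and 140.2 CPM in control and 109.6, 117 and 100.5 CPM in induced caps of stage 17 (a log2 fold change of -0.36, SE 0.13, adjusted p 0.031), a call lost under 15 of 25 alternatives. Its control and induced ranges did not overlap, though the gap was narrow. adam17, the TNF and EGF ligand sheddase, passed no test between conditions in either copy without the pairing of libraries. With the column letter as a block, adam17.L was lower at stage 13 (log2 fold change -0.49, adjusted p 0.011) and higher at stage 17 (0.50, adjusted p 0.0076). Between stages, without the block, adam17.S changed from stage 9 to 13 by -1.49 in control and -1.94 in induced caps. From stage 13 to 17 it changed by 1.49 and 1.53 (all adjusted p at most 2.2e-05). adam17.L was called between stages only in induced caps from stage 13 to 17 (1.44, adjusted p 7.1e-05). adam9.S, a further sheddase, was at 36.6 ± 4.55 CPM in induced and 57.4 ± 8.90 CPM in control caps of stage 17 (log2 fold change -0.65, SE 0.21, adjusted p 0.02). Scaling by library totals ended that call (adjusted p 0.15), as did leaving out control library b or c or induced library a or b (up to 0.11), and adam9.L passed at neither stage. adam15.L, an ADAM with an integrin-binding motif in mammals, was called lower at stage 13 (3.60 ± 0.096 against 8.64 ± 3.79 CPM, adjusted p 0.048), a call lost under 19 of 25 alternatives. Without control library b, its log2 fold change went from -1.26 to -0.86 (adjusted p 0.23).

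Genes of the adam28 group, named for a mammalian ADAM first known from lymphocytes, were lower in induced caps at stages 13 and 17. adam28.1.L was at 37.5, 40.1 and 36.8 CPM in control and 0.851, 1.02 and 2.43 CPM in induced caps of stage 13, and at 18.3, 11.6 and 9.05 against 1.87, 0.405 and 0.263 CPM at stage 17. The groups lay far apart at both stages (log2 fold change -4.72, SE 0.60, adjusted p 1.6e-05, then -3.98, SE 0.60, adjusted p 6.1e-05). Without induced library c of stage 13 or a of stage 17 the values were -5.31 and -5.26. At stage 9 the ranges overlapped. adam28.1.S was lower by a smaller factor (-1.66, SE 0.28, adjusted p 0.00024, and -2.52, SE 0.29, adjusted p 4.6e-06), as was adam28.1l.L (-2.45 and -3.18, adjusted p 3e-05 and 2e-06). A read with more than a single place in the genome was left out of the counts, and how alike the adam28 rows are in sequence was not tested, so their levels are uncertain. Myeloid marker genes were also lower in induced caps of stage 17, at 4.74 to 19.5 against 26.0 to 43.1 CPM summed over 11 genes. Of these, spib.S and cebpe.L were at 0 in both groups, mpo.L, cebpe.S and lyz.L in control caps alone and mpo.S in induced caps alone. Lower sums at stage 17 were not particular to myeloid genes. Ionocyte markers summed to 4.74 to 26.0 against 801 to 1007 CPM, and multiciliated, goblet and epidermal sums were lower too. In control caps the myeloid sum was 9.43 to 18.8 CPM at stage 13 and 26.0 to 43.1 CPM at stage 17. Between these stages adam28.1.L fell there (log2 fold change -1.56), while adam28.1.S and adam28.1l.L rose (1.68 and 1.20). The part of any of these cells in the adam28 levels was not tested.

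**Figure D2:**
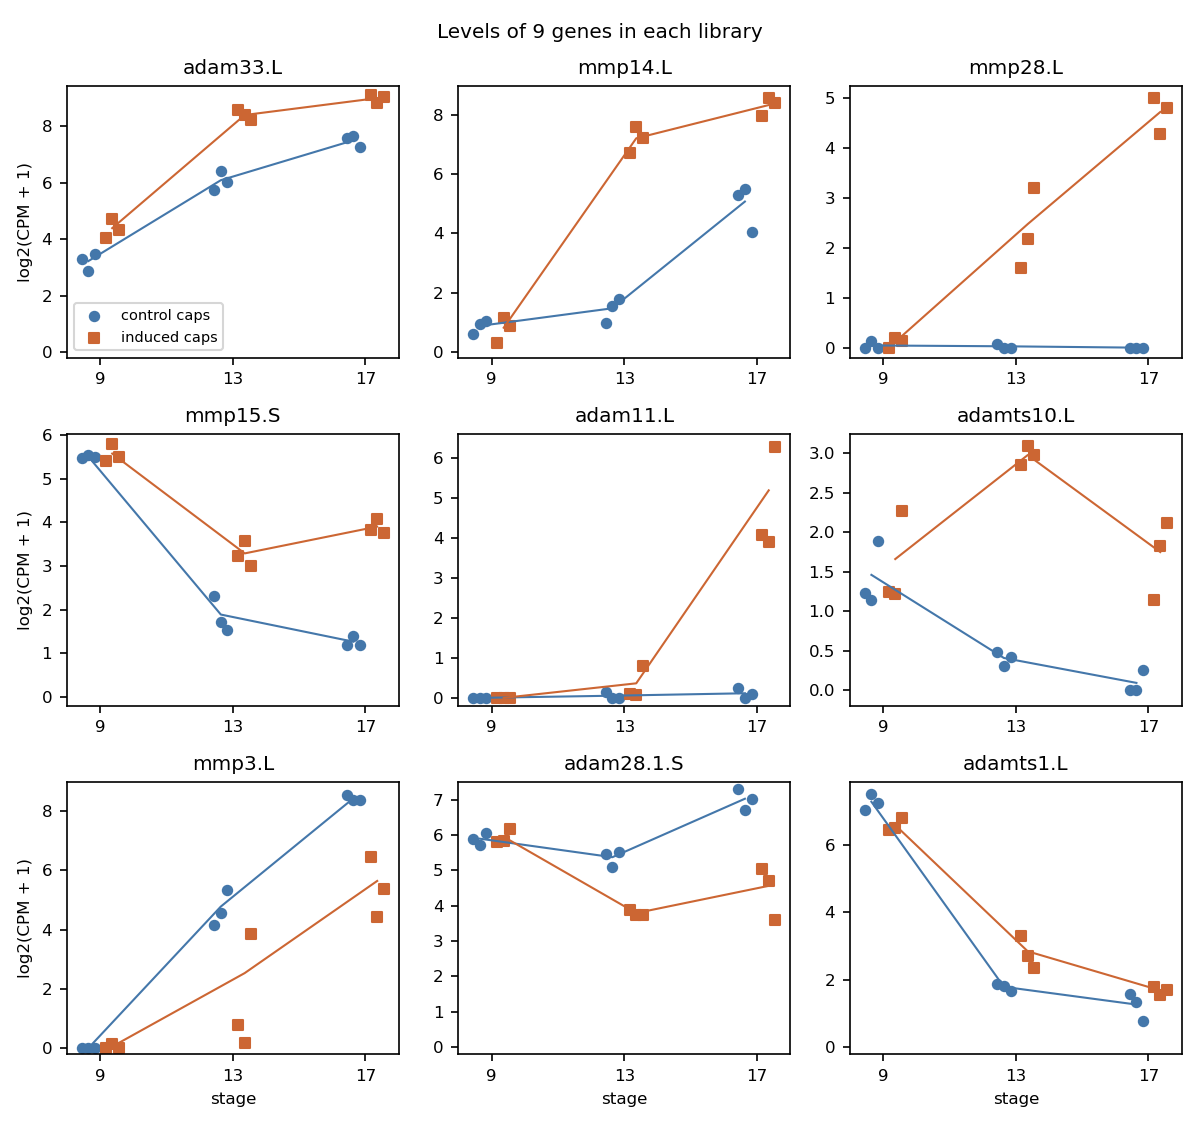
Levels of 9 members in each of the 18 libraries, as log2(CPM + 1) on the vertical axis against stage. Points are libraries, blue circles for control and orange squares for induced caps, and lines join the log2 of the group means. Induced libraries of adam33.L, mmp14.L and mmp28.L lie above all control libraries of stages 13 and 17, and those of mmp3.L and adam28.1.S lie below.

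The ADAMs listed by name as lacking a working zinc site, which act through binding and are best known from neurons, went opposite ways at stage 17. adam11.L had at most 0.184 CPM in any control library and reached 15.9, 13.9 and 77.0 CPM in induced caps of stage 17. Library c stood far above the other induced libraries, which in turn stood far above all controls (log2 fold change 8.68, SE 1.19, adjusted p 9.3e-05). Without induced library c of stage 17 the log2 fold change was 7.42 (adjusted p 0.00057), and without control library a, which holds most of the few control counts, it was 9.98 (adjusted p 0.00061). Induced library c of stage 17 also held the most skeletal muscle transcripts of its group (36.6 CPM over 13 genes, none at 0 throughout the group, against 1.33 and 2.74), and neural plate markers summed to 485 to 718 CPM in the induced group against 37.2 to 53.9 CPM in controls. At stage 13 the muscle sums were 4.91, 77.6 and 5.60 CPM in induced libraries a, b and c, with b the highest. adam11.L had 15 counts over that group (0.287 ± 0.389 CPM). How the fitted rise of adam11.L from stage 13 to 17 moved without library c of either stage is given below. The part of muscle and neural plate cells in the adam11.L level was not tested. adam22.L, a receptor subunit for LGI proteins, was at 9.20, 15.4 and 17.2 CPM in control and 0.846, 1.22 and 2.28 CPM in induced caps of stage 17. These groups did not overlap (log2 fold change -3.25, SE 0.45, adjusted p 2.6e-05). At stage 13 its call (-1.18, SE 0.42, adjusted p 0.033) was lost under 9 of 25 alternatives.

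All ADAMTS calls between conditions were in the direction of higher levels in induced caps, 4 at stage 13 and 5 at stage 17 of 15 tested (26.7% and 33.3%, against 18.9% and 22.2% of all genes called higher). Most of these genes were low. adamts10.L, which acts on fibrillin microfibrils in mammals, was at 0.400, 0.236 and 0.339 CPM in control and 6.22, 7.49 and 6.90 CPM in induced caps of stage 13. The ranges lay well apart (log2 fold change 4.36, SE 0.71, adjusted p 0.00015). At stage 17 it was at 0, 0 and 0.195 against 1.21, 2.53 and 3.33 CPM, a ratio of 41.1 with a 95% counting interval of 13.8 to 202 (adjusted p 0.00013). adamts7.L, a protease of cartilage oligomeric matrix protein in mammals, was at 3.56, 1.01 and 1.75 CPM in induced caps of stage 17 with 1 count in the controls, a ratio of 100.5 (95% counting interval 17.7 to 4004, adjusted p 0.00039). At stage 13 it was called with the block of column letters alone (log2 fold change 2.92, adjusted p 0.047, against 0.055 without it). Without induced library a its fitted log2 value went from 6.31 to 5.72. Leaving out the only control library with a count, a for adamts7.L and c for adamts10.L, raised the fitted values at stage 17 to 8.37 and, from 5.13, to 8.54.

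The procollagen proteinases adamts2.S and adamts3.L were higher in induced caps of stage 17. adamts2.S was at 0.966, 0.861 and 1.49 against 0.245, 0.164 and 0 CPM (log2 fold change 2.94, SE 0.60, adjusted p 0.00081, and 3.63 without control library a). adamts3.L was at 0.846, 1.42 and 1.54 against 0.245, 0.329 and 0.326 CPM (2.06, SE 0.50, adjusted p 0.0032). Neither set of ranges overlapped. adamts3.S was called at stage 13 on 13 counts against 0, at least 3.92-fold higher counting 3 counts over the control group (adjusted p 0.0077), and its fitted log2 value went from 5.34 to 4.37 without induced library c. The proteoglycanase adamts1 differed between its copies in the stage at which it was called: adamts1.L was higher in induced caps of stage 13 (8.90, 5.45 and 4.13 against 2.69, 2.52 and 2.17 CPM, log2 fold change 1.32, adjusted p 0.0021) and adamts1.S at stage 17 (1.63, 1.67 and 2.81 against 0.859, 0.602 and 0.651 CPM, 1.54, adjusted p 0.0095). Without induced library c of stage 17 the latter was 1.23 with an adjusted p of 0.056. At stage 9 adamts1.L was at 94.3 CPM in induced and 152.9 CPM in control caps, without overlap, but did not pass (-0.70, SE 0.26, adjusted p 0.9). adamts8.L was called at stage 13 on 2 control counts, with ranges that overlapped (ratio 7.24, 95% counting interval 1.70 to 64.9, adjusted p 0.024), a call lost under 6 of 24 alternatives: with DESeq2 (adjusted p 0.053), without control library a or b or induced library b or c (0.055 to 0.088), and without the 2 muscle-rich induced libraries (0.086).

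Several ADAMTS genes that fell below the filter had more counts in some groups than in others. These were picked after their values were seen, except adamts18 and adamts9, and have no test. adamts18.L had 4, 18 and 7 counts and adamts18.S 9, 13 and 2 counts in induced libraries of stage 13, with 0 in all controls of that stage. At stage 17 nearly all their counts came from induced library c (22 of 23 and 20 of 21). Muscle transcripts were highest in the same libraries, b of stage 13 (77.6 CPM) and c of stage 17 (36.6 CPM), and their part was not tested. adamts4.L ran the other way, with 20, 35 and 9 counts in control and 1, 0 and 1 in induced caps of stage 17. adamts9.S had 15, 8 and 8 against 1, 2 and 0 counts there, and adamts9.L passed no test between conditions. adamts6.S likewise did not pass (log2 fold change 0.48 and 0.55 at stages 13 and 17).

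Of 7 tested membrane-bound MMPs, 3 were higher in induced caps of stage 13 and 5 at stage 17, and none was called lower by edgeR, against 18.9% and 22.2% of all genes higher and 21.4% and 22.8% lower. At an unadjusted p under 0.05, 3 and 6 of the 7 differed in either direction, beside 11607 and 12630 of all 24499 genes tested. At stage 13 mmp16.S had a log2 fold change of -0.61 and mmp24.S of -0.07, neither passed. The summed level was 67.1 ± 0.929 CPM in control and 69.7 ± 6.22 CPM in induced caps of stage 9, then 11.6 ± 1.31 against 170 ± 45.6 CPM at stage 13 and 39.9 ± 15.7 against 357 ± 64.4 CPM at stage 17. Of the induced sums, mmp14.L alone held 148 CPM at stage 13 and 323 CPM at stage 17. mmp14.L codes for the membrane-type collagenase that also activates the gelatinase mmp2. It was at 0.972, 1.89 and 2.44 CPM in control and 104.5, 191 and 148 CPM in induced caps of stage 13. At stage 17 it was at 38.6, 44.2 and 15.4 against 249.8, 379.5 and 341 CPM. The log2 fold change was 6.40 (SE 0.53, adjusted p 2.8e-07) and then 3.302 (SE 0.44, adjusted p 1.8e-05), while at stage 9 all 6 libraries lay at or below 1.21 CPM (-0.12, SE 0.57). The difference was called under each of the 25 alternatives at both later stages.

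mmp15, another membrane-type MMP, was higher in induced than in control caps in both copies at stages 13 and 17, below its stage 9 levels. mmp15.S was at 44.5 CPM in control and 46.7 CPM in induced caps of stage 9. By stage 13 it had fallen in both (log2 fold change -4.02, adjusted p 1.8e-09, and -2.41, adjusted p 2.1e-07). mmp15.L went from 17.6 to 6.46 CPM in control caps (-1.44, adjusted p 0.00057) and from 18.5 to 12.6 CPM in induced caps (-0.56, not passed). mmp15.S was at 3.94, 2.29 and 1.90 against 8.44, 10.96 and 6.96 CPM at stage 13 and at 1.29, 1.64 and 1.30 against 13.3, 16 and 12.6 CPM at stage 17, without overlap (log2 fold change 1.68, SE 0.25, adjusted p 6e-05, and 3.298, SE 0.26, adjusted p 1.4e-07). mmp15.L was higher by 0.96 (SE 0.31, adjusted p 0.02) and 1.64 (SE 0.31, adjusted p 0.00046). The first of these was lost without control library b or c or induced library a or b of stage 13 (adjusted p 0.052 to 0.085). mmp16.L, also of the membrane type, was at 1.51, 1.11 and 0.965 CPM in induced caps of stage 17 against 3 counts in controls (ratio 19.4, 95% counting interval 6.38 to 96.5, adjusted p 0.0012). mmp25.L, anchored by a lipid, was at 1.45, 1.98 and 1.54 against 0.123, 0.0548 and 0.130 CPM there (log2 fold change 3.95, SE 0.83, adjusted p 0.0011).

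The gelatinases, among them the mmp2 that mmp14 can activate, were near 0. The mmp2 and mmp9 rows summed to at most 0.132 CPM in any of the 18 libraries, and none was tested. mmp2.S had 4 counts over all 18 libraries. No row for mmp2.L or for timp1 and timp4 was analysed here.

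**Figure D3:**
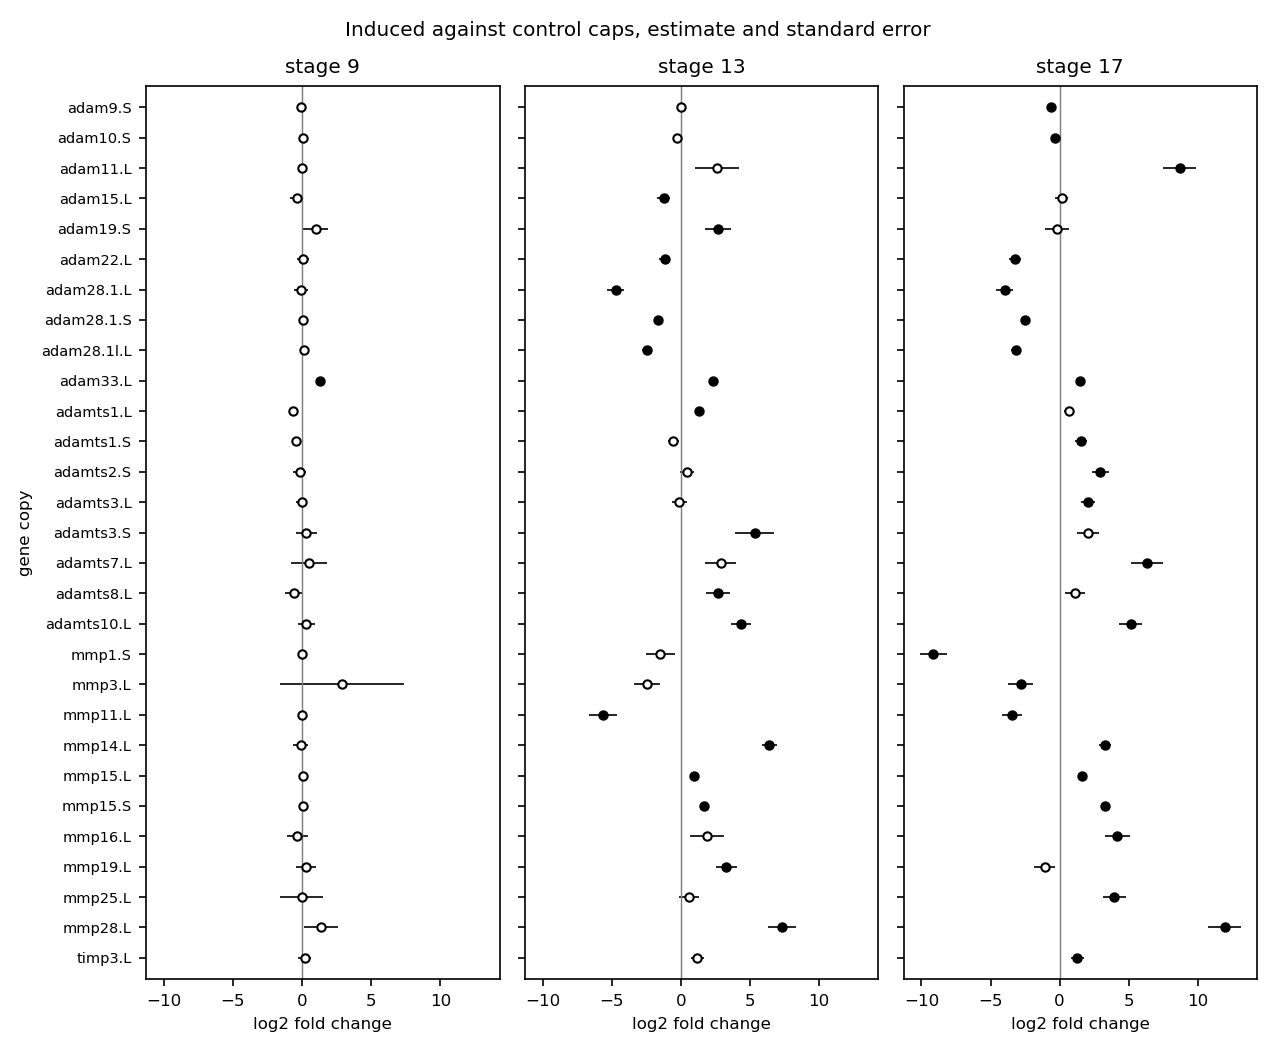
Log2 fold change, induced against control caps, of the 29 members called in at least 1 of the 3 stages, with SE as bars. Filled points passed the adjusted p threshold. Where a group had no counts the point is the fitted value and not a bound. Points of mmp28.L and mmp14.L lie far to the right at stages 13 and 17, and those of adam28.1.L and mmp11.L to the left.

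Among secreted MMPs, mmp28.L, which codes for epilysin, went from near 0 to a clear level in induced caps. It had 1 count in controls of stage 13 against 2.03, 3.54 and 8.09 CPM in induced libraries, a ratio of 211 with a 95% counting interval of 37.5 to 8364 (adjusted p 6.3e-05). At stage 17 the controls had 0 counts and induced libraries 30.7, 18.2 and 26.9 CPM, at least 417-fold higher counting 3 counts over the control group (adjusted p 2.6e-06). Each induced library was above each control library, and both calls held under all 25 alternatives. Without induced library c of stage 13 the fitted log2 value there went from 7.32 to 6.64, and without control library a, the only control with a count, to 9.47. mmp19.L was a transient case. It was at 1.26, 0.867 and 1.29 against 10.1, 12.1 and 10.9 CPM at stage 13 (log2 fold change 3.27, SE 0.76, adjusted p 0.0025), and at 1.78, 0.931 and 1.56 against 0.242, 0.456 and 1.27 CPM at stage 17, where ranges overlapped (-1.08, SE 0.74, adjusted p 0.26).

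Of the 3 tested stromelysins, mmp11.L was lower in induced caps of stage 13, and mmp3.L and mmp11.L were lower at stage 17, as was the collagenase mmp1.S. mmp3.L, a stromelysin, was at 16.7, 22.8 and 39.9 CPM in control and 0.720, 0.120 and 13.5 CPM in induced caps of stage 13, and at 371, 329 and 331 against 86.2, 20.5 and 40.1 CPM at stage 17. The groups did not overlap, but induced libraries differed widely. The log2 fold change was -2.45 (SE 0.93, adjusted p 0.05 as rounded, not passed) and -2.81 (SE 0.91, adjusted p 0.021). With the column letter as a block, the first became -2.86 (adjusted p 0.031). The second was lost with DESeq2 (adjusted p 0.057), with no filter on low counts (0.081), and without induced library b (0.086) or c (0.077), and was -3.50 without induced library a. In induced libraries a, b and c the summed level of 7 goblet and small secretory cell markers, none at 0 throughout these groups, was 628, 267 and 1683 CPM at stage 13 and 14030, 5196 and 8504 CPM at stage 17, the same order of libraries as mmp3.L at stage 17 and with library c highest in both at stage 13. The controls held 8154 to 9718 and 18770 to 26060 CPM. Ionocyte markers summed to 4.12, 2.70 and 57.4 CPM in induced libraries of stage 13 (387 to 846 CPM in controls) and 26.0, 5.77 and 4.74 CPM at stage 17 (801 to 1007 CPM), and multiciliated cell markers to 50.9, 62.1 and 186 CPM (1131 to 1632 CPM) and 68.7, 53.7 and 61.4 CPM (767 to 962 CPM). Of the 8 and 12 genes, atp6v0d2.S and gmnc.S were at 0 in the induced groups. Epidermal markers summed to 8428, 6926 and 8986 CPM in induced libraries a, b and c of stage 13 and 23170, 15650 and 15880 CPM at stage 17. At stage 13 library c was highest in mmp3.L, in the epidermal sum and in the other 3 marker sums. The order of libraries in mmp3.L at stage 17 was also that of the epidermal and multiciliated sums, but not of the ionocyte sum. It was thus not particular to goblet and small secretory cell markers. The part of these cells in the mmp3.L level was not tested.

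mmp11.L, stromelysin-3, known in Xenopus from the remodelling of tissues at metamorphosis, was at 1.03, 1.73 and 1.15 CPM in control caps of stage 13 with 1 count in the induced libraries, a ratio of 63.0 in favour of controls (95% counting interval 10.9 to 2531, adjusted p 0.00081). At stage 17 it was at 3.44, 8.10 and 2.08 against 0.725, 0.354 and 0.175 CPM (log2 fold change -3.45, SE 0.72, adjusted p 0.002), with -2.68 without control library b and -4.07 without induced library a. At stage 13 the fitted value went from -5.63 to -7.66 without induced library c, which held the only count. The S copy did not pass at either stage. mmp1.S was at 3.01, 3.12 and 4.82 CPM in control caps of stage 17 and at 0 counts in induced ones, at least 71.0-fold lower (adjusted p 4e-05). mmp7.L, a matrilysin, had at most 3 counts in a library.

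TIMPs were low and mostly not called. timp3.L, which binds the matrix, was at 1.04, 1.75 and 0.781 CPM in control and 3.81, 3.04 and 1.84 CPM in induced caps of stage 17 (a log2 fold change of 1.27, SE 0.47, adjusted p 0.037). The groups came close without overlap, and leaving out control library a or c or induced library a or b ended the call (adjusted p 0.07 to 0.13). At stage 13 the value was 1.17 (SE 0.46, adjusted p 0.054), and 1.20 (adjusted p 0.025) with the column letter as a block. timp3.S passed at neither stage, nor did timp2.S. timp2.L, not tested, had 3, 19 and 17 counts in induced and 0, 2 and 0 in control caps of stage 17.

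**Figure D4:**
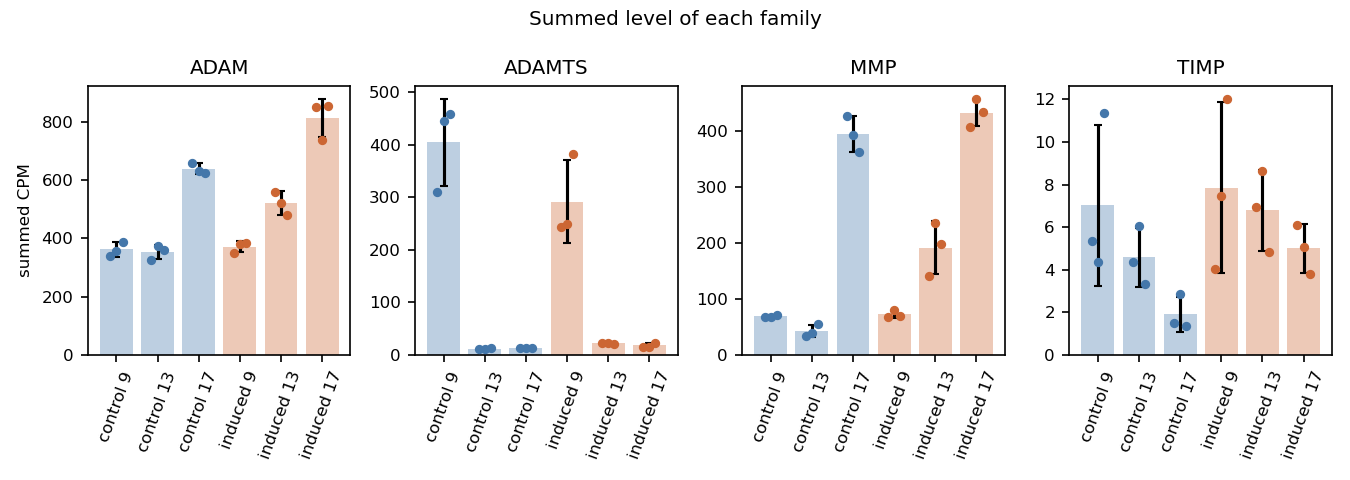
Summed CPM of each family in the 6 groups, from 0, with bars as means, error lines as SD and points as the 3 libraries. The ADAMTS sum falls after stage 9 in both conditions, and the MMP sum at stage 13 is above the controls in all 3 induced libraries.

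Between stages, the ADAMTS family fell after the blastula in both conditions. In control caps its summed level went from 405 ± 82.7 CPM at stage 9 to 11.2 ± 1.17 CPM at stage 13 and 12.6 ± 0.532 CPM at stage 17, and in induced caps from 291 ± 79.3 to 21.4 ± 1.40 and 17.7 ± 4.69 CPM. Most of the stage 9 sums was adamts1: its L and S copies were at 152.9 and 208.5 CPM in control and 94.3 and 154.6 CPM in induced caps. Of 15 tested ADAMTS genes, 13 fell in control caps between stages 9 and 13, and 10 fell in induced caps, where 2 rose. Over all members the counts from stage 9 to 13 were 8 higher and 23 lower in control caps (17.8% and 51.1%, against 36.2% and 35.1% of all genes) and 11 higher and 21 lower in induced caps (24.4% and 46.7%, against 35% and 35.5%). The median log2 fold change in control caps was -0.73 for members and -0.02 for all genes. Scaling by library totals moves the median of all genes by -0.79 in that comparison and -0.65 in the induced one, so these are changes relative to the typical gene.

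In control caps the falls included adamts1.S (log2 fold change -6.17, SE 0.41), adamts16.L (-6.09, SE 0.74, and -6.91 without library b of stage 13), adamts1.L (-5.95) and adamts19.L, which had 0 counts at stage 13 and was at least 16.9-fold lower. adamts1.S went from 136, 227 and 263 CPM to 1.66, 3.15 and 3.93 CPM, far outside its range at stage 9. In induced caps adamts16.L fell by 6.69 (SE 0.76), with log2 fold changes of -10.45 and -6.08 without library b or c of stage 13, and adamts1.S by 6.28 (SE 0.42). Rises included mmp3.L in control caps (at least 622-fold) and mmp14.L in induced caps (7.60, SE 0.56, and 8.19 without library b of stage 9), where adam33.L rose by 4.08 (SE 0.24) and mmp28.L by 5.68 (SE 0.81). For mmp28.L the value was 6.52 without library b of stage 9 and 5.003 without library c of stage 13. mmp11.S and mmp11.L rose at least 31.9-fold and 30.3-fold in control caps, from 0 counts. mmp14.L in control caps did not pass from stage 9 to 13, with 0.508, 0.928 and 1.06 CPM before and 0.972, 1.89 and 2.44 CPM after.

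From stage 13 to 17, members rose more often than they fell: 11 and 6 in control caps (24.4% and 13.3%, against 20.1% and 19% of all genes) and 17 and 5 in induced caps (37.8% and 11.1%, against 21% and 18.7%). In control caps mmp1.S rose 54.0-fold by ratio (95% counting interval 18.2 to 264), mmp14.L by 4.23 (SE 0.49, adjusted p 1.1e-05) and mmp3.L by 3.70 (SE 0.95, adjusted p 0.0068) on the log2 scale. adamts3.S rose there at least 2.4-fold, on 8 counts against 0 (adjusted p 0.021). mmp3.L rose in induced caps as well, by 3.33 (SE 0.96, adjusted p 0.013). In induced caps adam11.L rose by 6.88 (SE 1.04), mmp16.L by 3.51 (SE 0.84) and mmp11.L 19.3-fold by ratio (95% counting interval 3.14 to 796), while mmp19.L fell by 4.03 (SE 0.78). Without library c of stage 13 these fitted values became 9.01 for adam11.L, 4.13 for mmp16.L and, from 3.98, 6.03 for mmp11.L. Without library c of stage 17 they were 5.64 for adam11.L and -4.94 for mmp19.L, and without library a of stage 17 mmp11.L was at 3.35. The comparisons of neighbouring stages within a condition share the stage 13 libraries. Left without induced library b of stage 13 and c of stage 17, picked for their muscle transcripts, the count of rises in induced caps was 11 and not 17. Leaving out single libraries gave 12 to 17. That fit without both holds fewer libraries, and the share of all genes called under it is not given here.

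The difference between conditions itself changed with stage. From stage 9 to 13 the change was called for 8 members in the direction of a higher level in induced caps and for 3 in the other direction, against 8.88% and 12.7% of all genes. It was called for mmp14.L (log2 6.52, SE 0.76, adjusted p 2.7e-05), with adamts10.L at 4.06 (SE 0.91, adjusted p 0.0043) and adam28.1.L at -4.63 (SE 0.77, adjusted p 0.00051). They were 7.11 without induced library b of stage 9, 4.77 without induced library c of stage 9 and -5.22 without induced library c of stage 13. For adam33.L it was 1.07 (SE 0.30, adjusted p 0.019). From stage 13 to 17, 2 and 3 members were called, against 4.03% and 4.07% of all genes. mmp14.L had a smaller difference at stage 17 than at 13 (-3.10, SE 0.62, adjusted p 0.006), with control libraries at up to 2.44 CPM at stage 13 and from 15.4 CPM at stage 17, as did mmp19.L (-4.34, SE 1.05, adjusted p 0.018, and -5.25 without induced library c of stage 17). Without induced library b of stage 17 the mmp19.L call was lost (adjusted p 0.051). mmp15.S gained (1.62, SE 0.35, adjusted p 0.01).

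**Figure D5:**
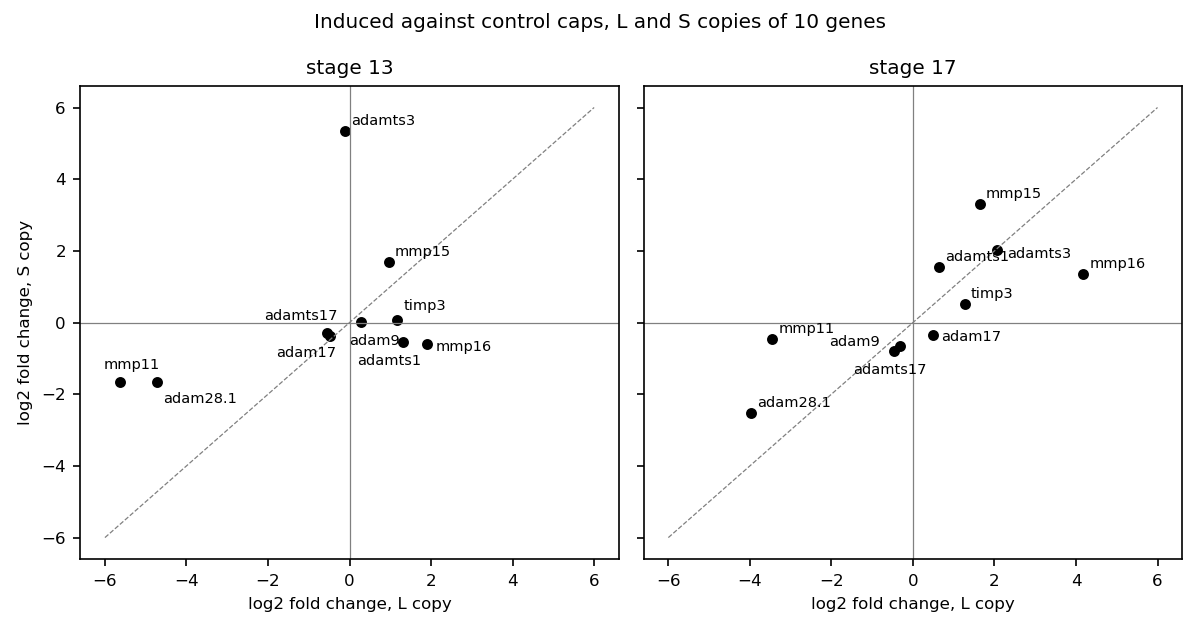
Log2 fold change, induced against control caps, of the L copy (horizontal) against the S copy (vertical) for the 10 genes with both copies tested, at stages 13 and 17. The dashed line marks equal change. mmp15 and adam28.1 lie away from 0 on both axes on the same side, and mmp11 and mmp16 mostly along the L axis.

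For 10 names both copies were tested. Between conditions, both copies were called in the same direction for 2 names at stage 13 and 2 at stage 17, and in opposite directions for 0, whereas 3 and 6 names had 1 copy called. Over all genes tested, 18.9% were called higher and 21.4% lower at stage 13, and 22.2% and 22.8% at stage 17. Shares over all pairs of copies are not given here, so whether these counts are usual cannot be told. In edgeR's test of control caps from stage 13 to 17, adam28.1.L fell by 1.56 (SE 0.51, adjusted p 0.024) while adam28.1.S rose by 1.68 (SE 0.28, adjusted p 0.00024), the only opposite calls among the 7 pairwise comparisons. The fall of adam28.1.L was lost without any of the stage 13 control libraries or without b or c of stage 17 (adjusted p up to 0.095). The L copy held 7.11% of the pair's counts in control caps of stage 9, 48.1% at stage 13 and 9.16% at stage 17, against 6.56%, 10.3% and 3.41% in induced caps. In mmp15 the L share rose from 28.4% to 69.9% and 78.5% in control caps and from 28.3% to 58.8% and 52.5% in induced caps. Shares move with any difference in length between copies, which is the same in every library.

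Of the 85 members, 81 were matched by name to the gene order of RefSeq's assembly Xenopus_laevis_v10.1, and 25 lay in 9 clusters with at most 5 genes between neighbours. On chromosome 2L, mmp3, mmp7, mmp20, mmp8, mmp1 and mmp13l lay within 11 genes, and 4 of their kin lay within 7 genes on 2S. Of these, mmp3.L on 2L and mmp1.S on 2S had enough counts to be tested. adamts1 and adamts5 were adjacent on 2L and 2S, but adamts5 was too low to test in either copy. adam28.2.L and adam28.1.L lay together on 3L, and adam28.1.S, adam28.2.S and adam28.3.S on 3S, while adam28.1l.L was in no cluster.

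Genes that surround these proteases, a list of 75 rows of substrates, activators, partners, inhibitors and ADAMTS-like (adamtsl) genes, included 64 that could be tested. Of these, 22 were higher and 17 lower in induced caps of stage 13 (34.4% and 26.6%, against 18.9% and 21.4% of all genes). At stage 17, 20 were higher and 20 lower (31.2% and 31.2%, against 22.2% and 22.8%). Among substrates, N-cadherin cdh2.L was at 72.3 ± 20.6 CPM in induced and 1.25 ± 0.199 CPM in control caps of stage 13 (log2 fold change 5.86, SE 0.48, adjusted p 2.7e-07), and at 85.9 ± 21.2 against 0.454 ± 0.242 CPM at stage 17 (7.53, SE 0.54, adjusted p 4.7e-08). cdh1.L, named as E-cadherin, was at 10.3 ± 2.44 against 0.265 ± 0.113 CPM and 36.4 ± 27.2 against 0.571 ± 0.623 CPM (5.24 and 5.99, adjusted p 0.00025 and 4.1e-05). Whether this row counts E-cadherin was not checked. Its low control levels stood beside epidermal marker sums of 30940 to 34590 CPM in control caps of stage 13. The Notch ligand dll1.S was lower in induced caps of stage 13 (a log2 fold change of -3.36, SE 0.72, adjusted p 0.0015).

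Among the substrates reported for ADAM13, cdh11 had no count in any control library, and cdh11.L was at 0.461 ± 0.103 CPM in induced caps of stage 13 and 1.02 ± 0.629 CPM at stage 17, too low to test. Ephrin efnb2.S was higher at all 3 stages (log2 fold change 1.40, 1.59 and 3.95, adjusted p 0.03, 0.00019 and 7.1e-08). efnb1.L was higher at stage 13 only by the test (1.01, SE 0.19, adjusted p 0.00059, against -0.16, SE 0.19, at stage 17). Fibronectin fn1.S was at 487 ± 295 against 40.0 ± 13.2 CPM at stage 17 (3.61, SE 0.45, adjusted p 9.3e-06) and passed at neither earlier stage. Papc, pcdh8.S, was higher at stage 13 (6.37 ± 3.40 against 0.0643 ± 0.0681 CPM, adjusted p 0.00095), and its L copy did not pass. Of the 23 tested activators and partners, 7 were higher and 12 lower at stage 13 (30.4% and 52.2%, against 18.9% and 21.4% of all genes). At stage 17, 4 were higher and 11 lower (17.4% and 47.8%, against 22.2% and 22.8%). The proprotein convertase furin.L, which removes the prodomain of many ADAMs and membrane-type MMPs, was at 29.2 ± 13.04 against 215 ± 37.8 CPM at stage 13 (log2 fold change -2.88, SE 0.31, adjusted p 3.4e-06) and 111 ± 41.2 against 386 ± 86.8 CPM at stage 17 (-1.80, SE 0.30, adjusted p 0.00014). Basigin, bsg.S, an inducer of MMPs in mammals, was lower by 2.95 and 3.66 on the log2 scale (adjusted p 0.00025 and 3.9e-05). tspan10.S, a tetraspanin partner of ADAM10, was higher but below 2 CPM in mean (7.19 and 5.22, adjusted p 0.0014 and 0.0024).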

How the data were processed

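Per the labels' protocols, poly(A) RNA libraries were made with a directional kit from total RNA. The submitters' processing notes name fastp 0.23.2, STAR 2.6.0 and HTSeq 1.99.2. The build, annotation and strand option behind the counting were not given in the sources used here, so overlapping and antisense genes cannot be told apart. The deposited values are raw counts per gene. HTSeq's 5 summary lines were set aside. They held 10.2 to 12.8% (no gene) and 10.3 to 12.2% (no unique place) of the reads.

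Counts were tested with edgeR 4.0.16 in R 4.3.3 (quasi-likelihood, TMM factors 0.785 to 1.40, filterByExpr by group, robust, two-sided) on all 18 libraries, with interaction contrasts for the change of the difference between stages. SE is the fold change over the root of F and is nominal for empty groups. Folds against 0 counts are bounds from 3 counts over the group, and against 1 to 3 counts ratios with 95% counting intervals. Intervals and bounds cover counting error only. DESeq2 1.42.0, other scaling, no filter, a block, the compared groups alone and left-out libraries were alternatives. Scripts were tested on simulated data.

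Columns carry letters a, b and c. Same-lettered libraries deviated together in 45 of 45 pairs (residual correlation 0.153 to 0.882), so letters pair them. No libraries were identical. The members named were the 10 largest calls per comparison of conditions, the 4 largest per stage comparison or interaction, and a fixed list. The closing section gives every called interaction, beyond that rule. Members and lists were chosen with earlier results of these data known.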

Additional observations from a re-analysis of the deposited data

Results flagged for a closer look

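For 16 results, all those called, the difference between induced and control caps itself differed between stages by the interaction test of edgeR. From stage 9 to 13 it shifted toward induced caps for mmp14.L (log2 change 6.52, SE 0.76, adjusted p 2.7e-05), adamts3.S (5.03, SE 1.65, adjusted p 0.043, a fitted value against control libraries at 0 counts), adamts10.L (4.06, SE 0.91, adjusted p 0.0043), adamts8.L (3.28, SE 1.09, adjusted p 0.041), mmp19.L (2.99, SE 1.01, adjusted p 0.045), adamts1.L (2.01, SE 0.39, adjusted p 0.0017), mmp15.S (1.61, SE 0.33, adjusted p 0.0024) and adam33.L (1.07, SE 0.30, adjusted p 0.019). It shifted toward control caps for adam28.1.L (-4.63, SE 0.77, adjusted p 0.00051), adam28.1l.L (-2.61, SE 0.45, adjusted p 0.00065) and adam28.1.S (-1.71, SE 0.39, adjusted p 0.0051). From stage 13 to 17 it shifted toward induced caps for adamts1.S (2.08, SE 0.59, adjusted p 0.04) and mmp15.S (1.62, SE 0.35, adjusted p 0.01), and toward control caps for mmp19.L (-4.34, SE 1.05, adjusted p 0.018), mmp14.L (-3.10, SE 0.62, adjusted p 0.006) and adam22.L (-2.07, SE 0.59, adjusted p 0.042). Several of these calls were unstable. From stage 9 to 13, adamts8.L was lost under 19 of 25 alternatives (adjusted p up to 0.11), adamts3.S under 17 of 24 (up to 0.1, DESeq2 among them) and mmp19.L under 16 of 25 (up to 0.15, with a value of 2.16 without control library c of stage 9 and 3.72 without induced library c of stage 9). From stage 13 to 17, adam22.L was lost under 16 of 25 (up to 0.1), adamts1.S under 10 of 25 (up to 0.2) and mmp19.L under 1 of 25 (0.051). Without induced library c of stage 13 adamts3.S was at 4.06 and without induced library c of stage 9 at 5.70, and adamts8.L was at 3.88 without induced library a of stage 9. The other 10 calls held under all 25 alternatives.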

How the results depend on the processing

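No called change of a member reversed its sign under any alternative. Changes that were not called were not checked for this. Leaving out each library in turn gave, for members higher and lower in induced caps, 0 to 1 and 0 at stage 9, 9 to 14 and 4 to 6 at stage 13, and 13 to 18 and 8 to 12 at stage 17; for stage 13 against 9, 8 to 11 and 21 to 24 in control and 9 to 14 and 16 to 22 in induced caps; for stage 17 against 13, 9 to 14 and 4 to 7 in control and 12 to 17 and 4 to 5 in induced caps; and for the change of the difference, 5 to 7 and 3 from stage 9 to 13, and 1 to 3 and 1 to 3 from 13 to 17. Fitting only the groups compared gave 0 higher at stage 9 (1), 7 higher in induced caps from stage 9 to 13 (11), and for the change of the difference 5 higher from stage 9 to 13 (8) and 4 from 13 to 17 (2), with the count as reported in brackets. Library totals and no filter each gave 3 lower in induced caps from stage 13 to 17 (5). The higher change from stage 13 to 17 (2) was 4 with DESeq2, 5 with library totals, 1 with RLE factors and 4 with the replicate block, and the lower one (3) was 5 with DESeq2. Without the 2 induced libraries richest in muscle transcripts, chosen after seeing the data, induced caps from stage 13 to 17 gave 11 higher (17) and 3 lower (5), and the change of the difference gave 5 higher from stage 9 to 13 (8) and 1 from 13 to 17 (2). The causes were not tested, and shares over all genes under these alternatives are not given here. The replicate block ended 0 calls of members and added 18. With it 13 members were higher (11) and 8 lower (6) in induced caps of stage 13, and 17 higher (14) and 9 lower (9) in those of stage 17. Calls over all 24499 genes grew too, to 5369 higher (4641) and 5886 lower (5236) at stage 13. At stage 17 they were 6260 (5427) and 6451 (5586). From stage 13 to 17, 15 members rose (11) and 7 fell (6) in control caps, and 17 rose (17) and 7 fell (5) in induced caps. Over all genes, 5896 rose (4929) and 5528 fell (4643) in control caps, and 6053 rose (5134) and 5512 fell (4589) in induced caps. Among the added calls, adamts3.S (log2 fold change 2.02, adjusted p 0.026) and mmp16.S (1.39, adjusted p 0.039) were higher in induced caps of stage 17, and adam17.L, adam22.L, adam9.L and adamts12.L were higher and adamts10.L lower in control caps from stage 13 to 17. Low genes, with under 1 CPM in most libraries, are limited by depth.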
